A study of Pimephales promelas with 338 samples.

Results

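Solute carriers are membrane proteins that move amino acids, sugars, nucleosides, organic ions, metals and metabolites into and out of cells and organelles. They are grouped in numbered families, so that slc7 and slc38 members carry mainly amino acids, slc2 members carry mainly hexoses and most slc25 members sit in the mitochondrial inner membrane. Several of them are known in mammals as targets of stress and nutrient sensing, and others handle drugs in kidney, liver and intestine. The genes described here are the probes of a targeted panel whose symbols begin with slc, a family number and a member letter and number, with slc7a11 and slc2a1b left out. There were 73 such probes among 1832, and the roles given below are those known from mammals unless stated. Another 4 probes, named slco or slc51a, do not match this pattern and are not members. The slco probes are set among other transporters below.

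RNA of whole larval fathead minnow (Pimephales promelas) was measured with TempO-Seq, in which oligonucleotide pairs are joined on a transcript and counted by sequencing. Larvae were exposed for 24 h to 1 of 12 chemicals at 8 codes, D1 to D8, to caffeine or to the solvent dimethyl sulfoxide (DMSO), which every group received at up to 0.34%. The series text gives 110 µM for caffeine and counts 8 such replicates. The 6 exposures held a pair of chemicals each: Metolachlor OA with 3,4-Dichlorophenyl isocyanate (exposure 1), 1(2H)-Phthalazinone with Gabapentin (2), Metribuzin-DA with 2-tert-Butyl-4-methoxyphenol (3), Hydrochlorothiazide with 4-Chlorophenyl methyl sulfoxide (4), Cetirizine with Fipronil amide (5), and Fexofenadine with cis-Nonachlordane (6). Nominal concentrations ran between 66.67 and 0.021 µM, with 56.43 to 0.018 µM for Fipronil amide and 32.2 to 0.011 µM for Fexofenadine. Whether D1 or D8 was the highest concentration is not stated, so results are given by code. The code follows the row of the library plate, and code and row cannot be told apart. Each exposure had 3 plates, and each library was a pool of up to 5 larvae from 1 plate. A code therefore had 3 libraries. The letters A, B and C of the sample descriptions were taken as these plates. The only D1 library of 2-tert-Butyl-4-methoxyphenol came from plate A. There were 18 caffeine and 18 DMSO libraries on the exposure plates, and 8 caffeine and 8 DMSO libraries in a separate quality assurance (QA) set. The labels give the larval stage; strain, age and sex were not used here. The series text names 4-chlorophenyl methyl sulfone where the samples have the sulfoxide.

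The 338 libraries held 112247 to 1029511 counts, with a median of 609598. The solute carriers took 1.37 to 3.66% of a library's counts, and without slc25a4 and slc25a5, both ADP/ATP carriers of the mitochondrial inner membrane, 0.618 to 1.06%. Median levels over all libraries were above 1000 CPM (counts scaled to 1000000 per library) for 4 members, between 100 and 1000 CPM for 15, between 10 and 100 CPM for 39 and under 10 CPM for 15, and 53 members had a count in every library. Levels of different genes are not compared, since each was read by 1 short probe. In whole larvae, fewer cells of a type and less RNA per cell cannot be told apart. By family, 18 members were amino acid carriers (slc1, slc3, slc7 and slc38), 11 belonged to slc6, slc17 and slc18, which hold most neurotransmitter and vesicle carriers, and 10 to slc2, slc5 and slc37. A further 7 carry organic ions and bile acids, 7 nucleosides and nucleotide sugars, 6 are mitochondrial, 5 carry metals, 4 carboxylates, 3 ions and 2 lipids or their precursors. A few members do not do what their family name says: slc5a6a is a multivitamin carrier, slc5a5 carries iodide, slc6a19b and slc6a14 carry neutral amino acids, slc16a10 carries aromatic amino acids, and slc9a3r1a encodes a scaffold protein rather than a carrier.

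Differences were tested on the counts with the quasi-likelihood test of edgeR over all probes that passed a filter on low counts, and a member was called at a Benjamini-Hochberg adjusted p below 0.05. Of the 73 members, 65 passed the filter in at least 1 comparison and 58 in all 12 chemicals. The 8 that never passed were slc10a2, slc29a1a, slc2a13b, slc30a2, slc37a4b, slc5a3a, slc5a5 and slc7a8b. In all, 35 members were called in at least 1 comparison, and 30 of these were called in 2-tert-Butyl-4-methoxyphenol or 3,4-Dichlorophenyl isocyanate. The share of all probes called in at least 1 comparison was not counted, so these totals do not set the members apart from the panel. Shares of all probes are given for each comparison below. No member was called in any of the other 10 chemicals or under caffeine. The map of slopes shows this pattern.

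**Figure D1:**
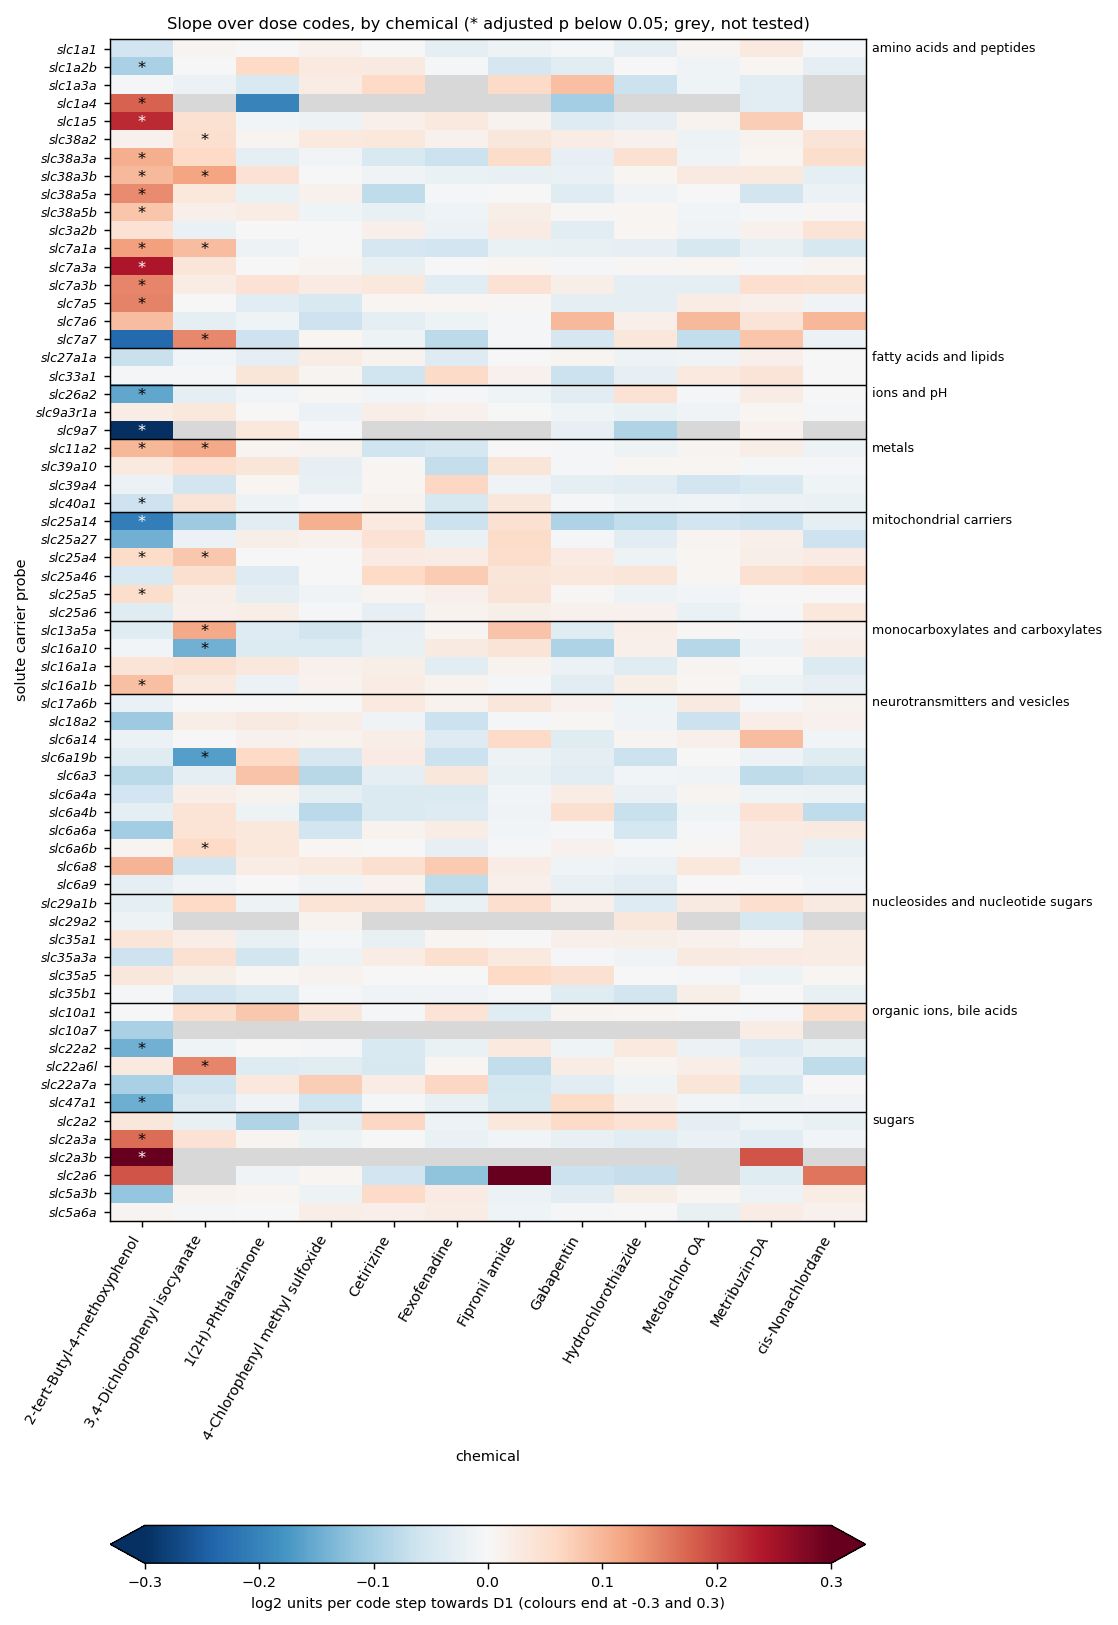
Slope of each solute carrier over the 8 dose codes (colour, log2 units per code step towards D1) in 12 chemicals; rows are the 65 members tested in at least 1 chemical, grouped by role, and stars mark an adjusted p below 0.05. The stars lie in 2-tert-Butyl-4-methoxyphenol (23 members) and 3,4-Dichlorophenyl isocyanate (11 members).

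In larvae given 2-tert-Butyl-4-methoxyphenol, a phenolic antioxidant also called butylated hydroxyanisole, 6 of the 17 tested amino acid carriers were called higher than in DMSO and 1 lower in the single D1 library, and 2 of the 6 tested carriers of organic ions were called lower. Against DMSO, 14 of 65 members (21.5%) were called at some code, against 14.7% of all probes tested, 14 of them at D1 and slc7a3a also at D2. DESeq2 called 12 members. At D1, 9 members rose and 5 fell, while 8.62% of all probes rose and 4.78% fell. One of the 9, slc2a3b, passed the filter through the D1 library alone, as did 13 symbols in all. Without those symbols 8 of 64 members rose and 5 (7.81%) fell at D1. Of all remaining probes by symbol, members included, 8.65% rose and 4.83% fell. The median log2 fold change at D1 was 0.15 over the members and -0.03 over all probes. The D1 values rest on 1 library that is assumed to vary like the other groups. Leaving out the D1 comparisons removes the calls at D1 by construction. The call of slc7a3a at D2 was lost when the unchanged p-values of the other codes were adjusted again, and 0 members were then called.

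The arginine and lysine carrier slc7a3a was the member with the smallest adjusted p. Its D1 library held 1169 CPM and its 3 D2 libraries 514.8, 235.1 and 190.4 CPM, against 195, 170.9 and 189.9 CPM in DMSO. The D3 to D8 libraries lay between 129.7 and 260.3 CPM and overlapped DMSO. The log2 fold change was 2.60 ± 0.26 (SE) at D1, a 6.06-fold rise (adjusted p = 5.16e-10). At D2 it was 0.75 ± 0.21 (adjusted p = 0.0450, 0.249 without plate B, and up to 0.785 over all alternatives). The highest D2 library was that of plate A, and without plate A, which also removes D1, the slope of slc7a3a over the codes was -0.04 per step.

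Its paralog slc7a3b reached 181.7 CPM in D1, against 56.12, 43.52 and 36.25 CPM in DMSO, a log2 fold change of 1.94 ± 0.31 (adjusted p = 2.51e-05). All D2 to D8 libraries of slc7a3b lay between 31.27 and 66.33 CPM, within or near the DMSO values. The related cationic amino acid carrier slc7a1a rose 2.34-fold at D1, to 193 CPM, against 60.56, 91.88 and 85.54 CPM in DMSO (adjusted p = 0.00704). The D1 library was the highest of the chemical for each of these 3 genes.

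Among carriers of neutral amino acids, slc7a5, slc1a5 and slc38a5a were called at D1, while slc38a2, slc38a3a, slc38a3b, slc38a5b, slc1a4 and slc3a2b were not. The light chain of the leucine and tryptophan exchanger, slc7a5, stood at 247.3 CPM at D1, against 91.57, 72.53 and 111.6 CPM in DMSO, a rise of 1.37 ± 0.29 on the log2 scale (adjusted p = 0.00179). Its heavy chain partner slc3a2b stood at 844.9 CPM at D1, against 466.7, 594.8 and 429.2 CPM in DMSO, and was not called. The neutral amino acid exchanger slc1a5 rose 3.90-fold at D1 (104.9 CPM, against 17.72, 32.24 and 27.55 CPM in DMSO, adjusted p = 0.00261), and its D2 libraries, at 82.3, 35.37 and 52.56 CPM, were all above DMSO. The glutamine carrier slc38a5a rose to 260.4 CPM at D1, against 85.66, 78.98 and 95.69 CPM in DMSO (1.53 ± 0.29, adjusted p = 4.95e-04). Its D3 to D6 libraries, between 54.61 and 84.54 CPM, lay mostly below DMSO. The 11 tested slc6, slc17 and slc18 members held no call at D1.

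Of 6 tested members of the sugar families, slc2a3a and slc2a3b were called at D1, and of 4 carboxylate carriers slc16a1b. The neuronal-type glucose carrier slc2a3a stood at 209.8 CPM, against 56.12, 75.76 and 97.14 CPM in DMSO (1.40 ± 0.34, adjusted p = 0.00858), and its D2 libraries held 163, 95.71 and 112.2 CPM. Without plate B the D1 call of slc2a3a was lost (adjusted p = 0.109). Its paralog slc2a3b had 25 counts in the D1 library, against 1, 1 and 3 counts in DMSO, and was called (adjusted p = 0.00139). It reached the minimum of the filter in no other of the 52 libraries of the exposure, so its call could come only from that library and it supports nothing further. The lactate and pyruvate carrier slc16a1b stood at 161.1 CPM at D1, against 100.4, 66.09 and 97.14 CPM in DMSO (0.81 ± 0.23, adjusted p = 0.0414). It missed the threshold with plate as a block (adjusted p = 0.0541), with DESeq2 (0.0564), with no filter (0.0622) and without plate B (0.302) or C (0.102).

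The members that fell at D1 included both drug efflux and uptake carriers known from the kidney. The proton-coupled exporter of organic cations slc47a1 had 48.71 CPM at D1, against 156.6, 156.3 and 191.4 CPM in DMSO, 3.58-fold lower (adjusted p = 1.75e-04). Its other libraries lay between 85.09 and 176.9 CPM, all above D1. The organic cation carrier slc22a2 had 28.1 CPM at D1, against 101.9, 46.74 and 102.9 CPM in DMSO (-1.63 ± 0.42, adjusted p = 0.0187, and 0.0992 without plate C). The sulfate carrier slc26a2, which supplies sulfate for cartilage, had 20.61 CPM at D1, against 59.08, 62.86 and 56.55 CPM in DMSO (-1.58 ± 0.42, adjusted p = 0.0258), and it was not called with DESeq2 (adjusted p = 0.103) or without plate B (0.114) or C (0.0645).

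The glutamate carrier slc1a2b, known for uptake by glia, had 1085 CPM at D1, against 2334, 2435 and 2517 CPM in DMSO, 2.33-fold lower (adjusted p = 0.00758). One D2 library, at 848.1 CPM, lay lower than D1, while the other two held 1907 and 2018 CPM. With plate as a block slc1a2b was also called at D2 (-0.61, adjusted p = 0.0460). The mitochondrial carrier slc25a14 had 4 counts at D1 (7.49 CPM), against 50, 32 and 28 counts in DMSO, and had a log2 fold change of -2.92 (adjusted p = 0.0334, and 0.0968 without plate B). Its D2 libraries held 58.1, 10.4 and 14.21 CPM, on both sides of the lowest DMSO library.

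**Figure D2:**
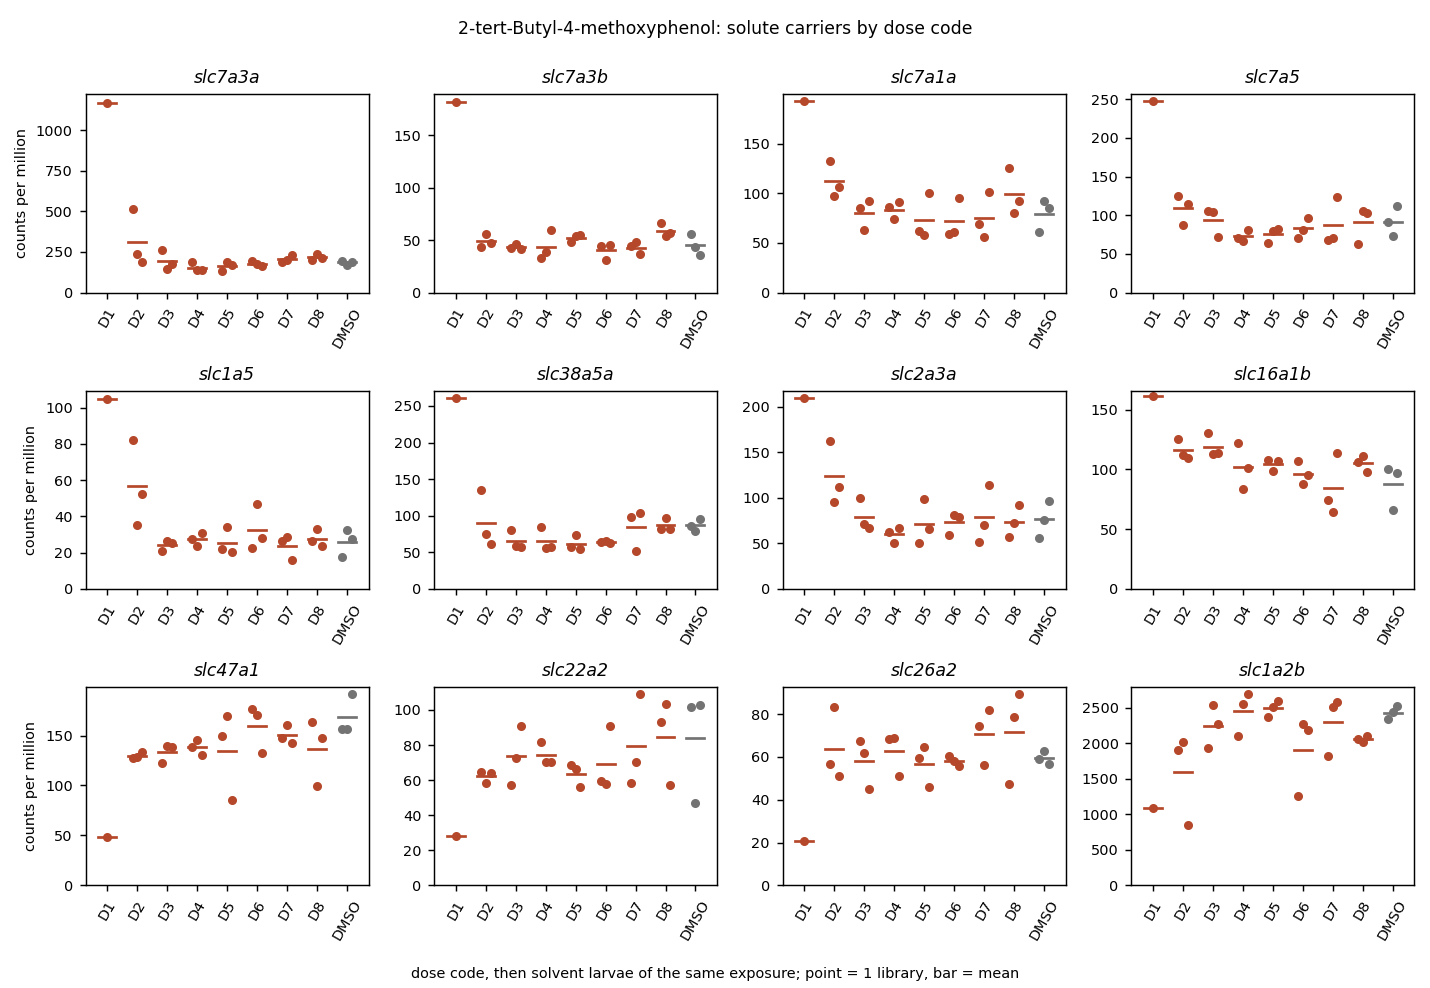
Levels (CPM) of 12 solute carriers (panels, y axes from 0) in 2-tert-Butyl-4-methoxyphenol libraries by dose code and in DMSO libraries of the same exposure; a point is 1 library and a bar the mean. The D1 library of slc7a3a stands at 1169 CPM and that of slc47a1 at 48.71 CPM.

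The linear trend over the codes, which uses no DMSO library, was called for 23 of 65 members (35.4%), against 27.2% of all probes. Of these 16 rose and 7 fell towards D1, while 14.4% of all probes rose and 12.8% fell. DESeq2 called 21. Without the symbols that passed the filter by D1 alone, slc2a3b among them, 15 of 64 members (23.4%) rose and 7 (10.9%) fell. Of all remaining probes by symbol, members included, 14.2% rose and 13% fell. The amino acid carriers held 10 that rose and 1 that fell among 17 tested. Slopes of the risers, in log2 units per step, were 0.24 for slc7a3a, 0.22 for slc1a5, 0.17 for slc2a3a, 0.15 for slc7a5, 0.15 for slc7a3b, 0.14 for slc38a5a and 0.12 for slc7a1a. They were 0.18 for slc1a4, an exchanger of alanine and serine, 0.11 and 0.10 for the glutamine carriers slc38a3a and slc38a3b, 0.08 for slc38a5b and 0.09 for slc16a1b. The slope of slc2a3b, 0.39, rests on the D1 library as above. The slope was 0.10 for slc11a2, the importer of ferrous iron, 0.06 for slc25a4 and 0.05 for slc25a5. The call of slc1a4 (adjusted p = 0.0412) was lost with DESeq2 (0.0863), with no filter (0.05004) and without plate B (0.0795) or C (0.156), and that of slc25a5 (0.0310) without plate C (0.0520).

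Slopes of the members that fell were -0.16 for slc26a2, -0.15 for slc47a1, -0.14 for slc22a2, -0.10 for slc1a2b, -0.21 for slc25a14 and -0.06 for slc40a1, the cellular exporter of iron. The Golgi proton exchanger slc9a7 had 0 counts at D1, which allows up to 5.62 CPM at 3 counts, and its fitted slope of -0.50 depends on how 0 counts are treated. Its call (adjusted p = 0.0491) was lost with DESeq2 (0.0922), RLE size factors (0.0514), no filter (0.0526) or without plate C (0.202). Without plate B the calls of slc25a14 (0.185) and slc40a1 (0.0533) were lost, and without plate C that of slc1a2b (0.0505). The iron importer slc11a2 and the exporter slc40a1 moved in opposite directions. Levels of slc11a2 were 185.5 CPM at D1 and 174.3, 124.8 and 80.97 CPM at D2, against 94.53, 99.93 and 79.74 CPM in DMSO. Levels of slc40a1 were 271.6 CPM at D1 and 284, 291.3 and 373.6 CPM at D2, against 317.5, 327.2 and 369.7 CPM in DMSO, and neither gene was called at a code. With plate as a block the creatine carrier slc6a8 was also called (0.12 per step, adjusted p = 0.0454).

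Without D1, 1 member kept its trend call, slc25a4, with a slope of 0.07 per step (adjusted p = 0.0334), and without plate A the same member alone was called, while without plate C it was not (adjusted p = 0.160), nor with no filter (0.0565). Its libraries held 7885 CPM at D1 and 10000, 7792 and 10370 CPM at D2, against 7445, 6454 and 6279 CPM in DMSO. All 3 D2 libraries of slc25a4 were above DMSO, although no code was called. The direction of the slope was kept without D1 by all 23 members except slc38a5a and slc7a3b, at -0.01 and -0.02 per step. A kept direction was not always a kept size. The slope of slc25a14 went from -0.21 to -0.00025, and that of slc16a1b from 0.09 to 0.06.

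Markers of other tissues moved in the same libraries, and their part in these results was not tested. Of the 3 intestinal markers on the panel, alpi.2 was lower at D1, at 65.57 CPM, against 1282, 1096 and 1306 CPM in DMSO. The others were not called at D1, and the median log2 fold change of the 3 markers there was 0.36, above DMSO. The summed level of the 3, which includes the fall of alpi.2, was 309.1 CPM at D1 and 844.8 to 929.5 CPM at D2, against 1254 to 1474 CPM in DMSO. The pair of pancreatic protease markers summed to 4361 CPM at D1, against 9524 to 12761 CPM in DMSO, and both fell with the trend. All 3 neuronal markers fell with the trend, with a sum of 1251 CPM at D1, against 1763 to 2012 CPM in DMSO, and so did the single retinal marker. The red blood cell marker tested, the haemoglobin gene hbae5, rose with the trend (0.34 per step, adjusted p = 0.0104). Against DMSO its log2 fold change was -0.38 in the single D1 library and 1.70 at D2, where it was not called. Of 5 liver markers 2 rose and 1 fell with the trend. The summed level of the 5 was 78521 CPM at D1 and 107031 to 146713 CPM at D2, against 110353 to 121783 CPM in DMSO. The single kidney marker, pax2a, was called neither at D1 nor with the trend, at 22.48 CPM at D1, against 22.57 to 36.25 CPM in DMSO. No marker of these lists was at 0 in every library of a group, and zeros in single libraries were not counted. The 2 probes left out by name stood at 475.8 CPM (slc7a11, cystine import) and 262.3 CPM (slc2a1b, glucose) at D1, against 41.35 to 68.14 and 22.57 to 31.02 CPM in DMSO. Of 6 other transporters on the panel, aqp3a, a channel for water and glycerol, and slco2b1 rose with the trend, aqp3a also at D1.

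In larvae given 3,4-Dichlorophenyl isocyanate, a reactive compound related to phenylurea herbicides, the trend was called for 11 of 59 members (18.6%), which is close to the 18.7% of all probes, and DESeq2 also called 11. The members that rose were slc7a1a, slc7a7, slc38a2, slc38a3b, slc11a2, slc13a5a, slc6a6b, slc22a6l and slc25a4, and those that fell were slc16a10 and slc6a19b. Relatives such as slc38a3a, slc38a5a, slc38a5b and slc6a6a were not called. Of the members 9 rose and 2 fell, whereas 8.03% of all probes rose and 10.7% fell. The median slope was 0.02 per step over the members and 0.00 over all probes. At D1 the median log2 fold change was 0.26 over the members and 0.01 over all probes.

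The glutamine carrier slc38a3b had 173.9, 133 and 139.5 CPM at D1, against 102, 59.79 and 65.96 CPM in DMSO. The D1 libraries all stood above DMSO, and those of D8, at 44.68, 74.08 and 59.14 CPM, overlapped it. The slope was 0.12 ± 0.02 per step (adjusted p = 2.58e-04) and the log2 fold change at D1 0.91 ± 0.22 (adjusted p = 0.0265). Without plate A, B or C the D1 call was lost (adjusted p = 0.122, 0.163 and 0.478), and without D1 that of the slope (0.143). Its paralog slc38a3a had 108.3, 96.89 and 88.44 CPM at D1, against 73.34, 70.1 and 57.72 CPM in DMSO, and was not called (slope 0.06, adjusted p = 0.129).

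The aromatic amino acid carrier slc16a10 went the other way. It had 111.6, 85.49 and 49.32 CPM at D1, against 148.5, 160.8 and 141.5 CPM in DMSO. All 3 D1 libraries lay below all DMSO libraries, and D2, at 113.8, 109.9 and 144.7 CPM, lay mostly below. The slope was -0.14 ± 0.03 per step (adjusted p = 5.09e-05) and kept its call without D1 (-0.10, adjusted p = 0.0470) and without each plate in turn. At D1 alone slc16a10 missed the threshold (-0.93 ± 0.25, adjusted p = 0.0651), and it passed with plate as a block (adjusted p = 0.0497) and with DESeq2 (adjusted p = 0.0316).

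The iron importer slc11a2 had 149.3, 131.1 and 144.6 CPM at D1 and 136.2, 133.6 and 110.1 CPM at D2, against 85.86, 61.86 and 78.33 CPM in DMSO. The D1 and D2 libraries were all above DMSO, and the slope was 0.11 ± 0.03 per step (adjusted p = 0.00156). The call of slc11a2 was lost without plate B (adjusted p = 0.131) and without D1 (adjusted p = 0.195). The adjusted p of slc40a1, the exporter, was 0.117, with a slope of 0.04.

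The organic anion carrier slc22a6l had 59.06, 94.99 and 74.83 CPM at D1 and 68.95, 81.19 and 72.37 CPM at D2, against 23.25, 30.93 and 45.35 CPM in DMSO. Its D1 and D2 libraries were all above DMSO, and the slope was 0.15 ± 0.04 per step (adjusted p = 0.00419). Leaving out any 1 plate kept that call, and leaving out D1 lost it (0.12, adjusted p = 0.176). The intestinal and renal amino acid carrier slc6a19b fell by 0.16 per step (adjusted p = 0.00958), with 16.41, 9.50 and 11.9 CPM at D1, against 19.68, 16.49 and 24.74 CPM in DMSO. At D3 slc6a19b had 8.19, 0 and 10.41 CPM, where it passed only with plate as a block (-1.77, adjusted p = 0.0470). Without D1 the slope of slc6a19b was still called (-0.20, adjusted p = 0.0396), and without plate B (0.136) or C (0.0522) it was not.

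The ADP/ATP carrier slc25a4 had 24660, 24480 and 21040 CPM at D1, against 13060, 10950 and 11580 CPM in DMSO, 1.89-fold higher (adjusted p = 0.00679). It was higher in all 3 D1 libraries than in any other library of the chemical, and its slope was 0.08 ± 0.02 per step (adjusted p = 0.00487). The call at D1 was lost without plate A (adjusted p = 0.0687) or B (adjusted p = 0.257), and that of the slope without plate B or D1. Its paralog slc25a5 had 3412, 3175 and 3510 CPM at D1, against 2211, 2270 and 2578 CPM in DMSO, and was called there only with plate as a block (0.46, adjusted p = 0.00811).

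The other members that rose had slopes of 0.15 (slc7a7, an exchanger of cationic and neutral amino acids, adjusted p = 0.00908), 0.09 (slc7a1a, 0.00854), 0.11 (slc13a5a, a citrate carrier, 0.0220), 0.06 (slc6a6b, a taurine carrier, 0.0201) and 0.05 (slc38a2, a neutral amino acid carrier, 0.0301). The citrate carrier slc13a5a had 49.22, 60.8 and 78.23 CPM at D1, against 32.2, 24.74 and 26.11 CPM in DMSO, and was called at D1 only with plate as a block (adjusted p = 0.0470). The taurine carrier slc6a6b had 331.4, 342 and 360.5 CPM at D1, against 271.9, 249.5 and 244.6 CPM in DMSO, with no overlap. Each of the 5 lost its call without plate B, without plate C and without D1, and slc38a2 also without plate A (adjusted p = 0.0734).

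**Figure D3:**
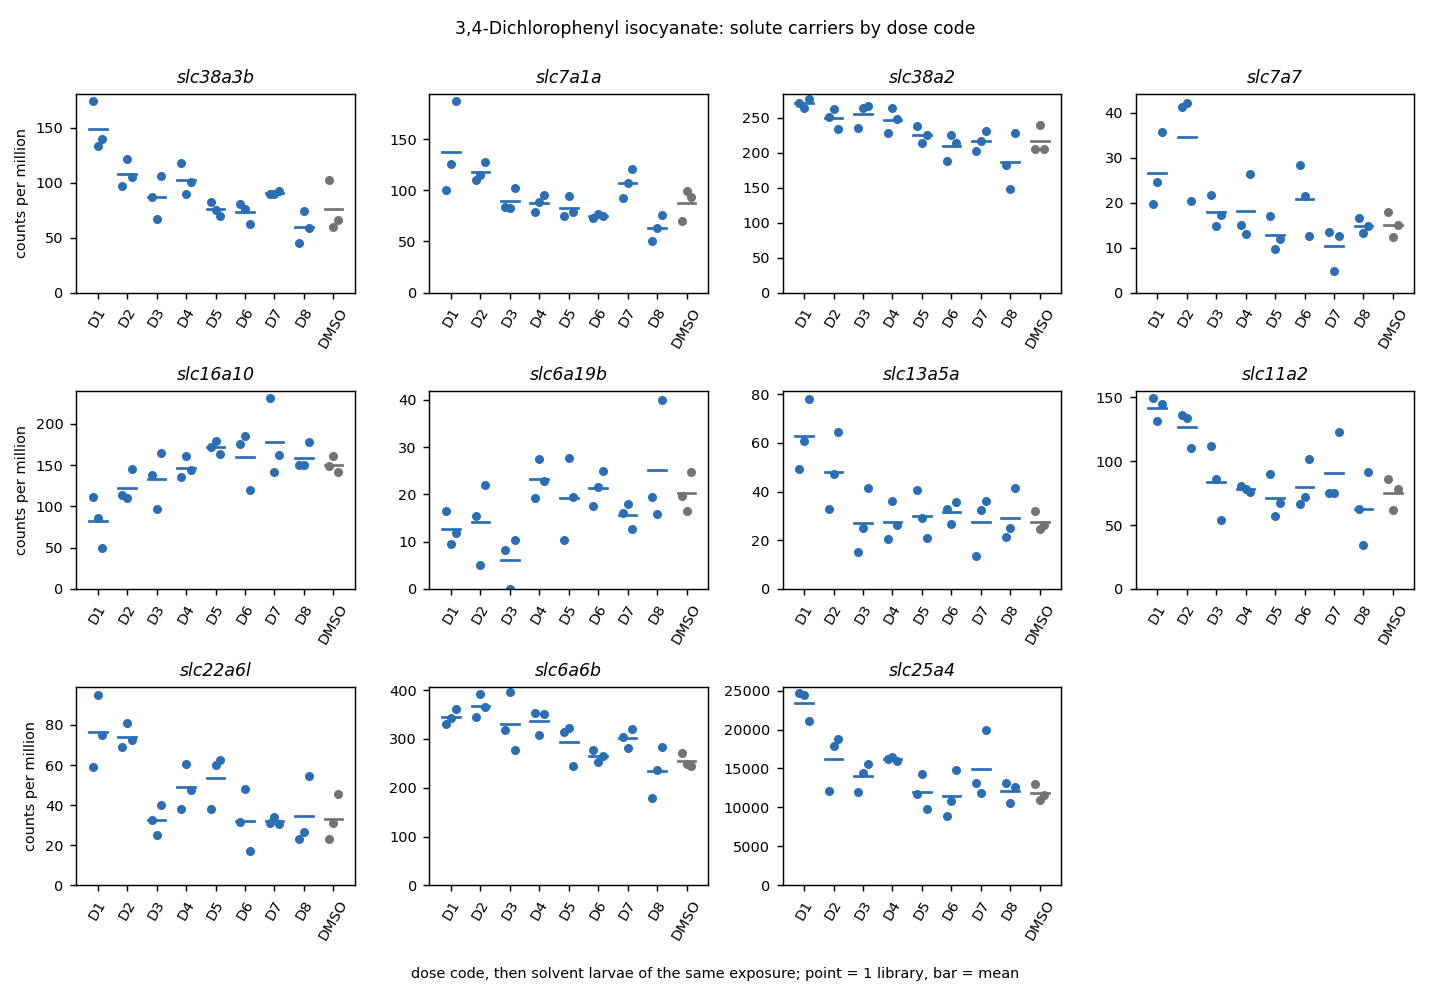
Levels (CPM) of the 11 solute carriers with a called trend (panels, y axes from 0) in 3,4-Dichlorophenyl isocyanate libraries by dose code and in DMSO libraries of the same exposure; a point is 1 library and a bar the mean. At D1 slc25a4 lies between 21040 and 24660 CPM and slc16a10 between 49.32 and 111.6 CPM.

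Against DMSO, 2 of 59 members (3.39%) were called at some code, slc25a4 and slc38a3b at D1, against 4.25% of all probes. DESeq2 called 3, and with plate as a block 6 were called. At D1, 2.12% of all probes rose and 1.99% fell. Without D1, 2 members kept a trend call, slc16a10 and slc6a19b. The 2 calls at a code, both at D1, went with it by construction, and 0 others were gained. Of the 3 intestinal markers 1, alpi.1, was lower at D1, and their sum was 639.8 to 1126 CPM, against 1278 to 1955 CPM in DMSO. The pancreatic proteases summed to 6400 to 15978 CPM at D1, against 14198 to 15643 CPM in DMSO, and 1 of 2 fell with the trend. The part of these cells in the results was not tested, and no marker was at 0 in every library of a group. Of 6 other transporters aqp3a and aqp9b rose and aqp4 fell with the trend.

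Towards D1, slc11a2, slc25a4, slc38a3b and slc7a1a rose with the trend in both chemicals, which were tested in different exposures with their own DMSO larvae. In 2-tert-Butyl-4-methoxyphenol only slc7a1a of these was also called at a code. Without plate A, which holds its only D1 library, the slopes there were -0.0096 for slc11a2 and -0.031 for slc38a3b. The 4 shared members were 36.4% of the members called in 3,4-Dichlorophenyl isocyanate and 17.4% of those called in 2-tert-Butyl-4-methoxyphenol. Over all probes, by symbol, 131 were called in both, which were 46.6% of those called in 3,4-Dichlorophenyl isocyanate and 30.3% of those in 2-tert-Butyl-4-methoxyphenol. Of the other members, slc16a10 had a slope of -0.14 in 3,4-Dichlorophenyl isocyanate and its 2-tert-Butyl-4-methoxyphenol D1 library held 131.1 CPM, inside the range of the DMSO libraries. The cationic carrier slc7a3a had 1169 CPM in the 2-tert-Butyl-4-methoxyphenol D1 library and its slope in 3,4-Dichlorophenyl isocyanate was not called. Differences in slope between the chemicals were not tested.

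No solute carrier was called by edgeR or DESeq2 in the other 10 chemicals, where 59 to 65 members were tested. At a code, 0.068% of all probes were called in Fexofenadine, 0.0629% in Metribuzin-DA and 0 in 1(2H)-Phthalazinone, 4-Chlorophenyl methyl sulfoxide, Cetirizine, Fipronil amide, Gabapentin, Hydrochlorothiazide, Metolachlor OA and cis-Nonachlordane. With the trend, 0.202% were called in Cetirizine, 0.0629% in Metribuzin-DA and 0 in the other 8. At an unadjusted p below 0.05 stood 232 of 4880 comparisons of a member with DMSO (4.75%), from 18 in 1(2H)-Phthalazinone to 30 in Metribuzin-DA, and 31 of 610 slopes (5.08%), from 1 in Hydrochlorothiazide to 8 in Fexofenadine.

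The members nearest to the threshold in these chemicals were named after their values were seen. The exporter slc47a1 had 58.28, 93.77 and 74.05 CPM at Fipronil amide D1 and 65.82, 90.58 and 95.32 CPM at D3, against 144.7, 158.9 and 166.9 CPM in DMSO. Its log2 fold change was -1.04 ± 0.22 at D1 (adjusted p = 0.104), below 0 at all 8 codes of Fipronil amide, and -0.30 to -0.71 at the 8 codes of Cetirizine. Both chemicals share these DMSO libraries, which held more slc47a1 than the caffeine libraries of the same plates, at 105.6, 100.8 and 127.6 CPM. The glutamate carrier slc1a2b had 1057, 2128 and 1402 CPM at cis-Nonachlordane D1, against 2986, 2151 and 2507 CPM in DMSO (-0.73 ± 0.19, adjusted p = 0.369), and was called only without plate B (-1.21, adjusted p = 0.0314).

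The slope of slc16a10 was -0.09 in Gabapentin and -0.09 in Metolachlor OA, with adjusted p of 0.985 and 0.999. It was below 0 in 8 of 12 chemicals, 3,4-Dichlorophenyl isocyanate among them. For members tested in all 12, this count ran from 1 for slc38a2 to 10 for slc7a1a, slc35b1 and others. In Gabapentin slc16a10 had 106.4, 167.2 and 151.1 CPM at D1, 256.5, 154.5 and 242 CPM at D8, and 217.4, 124.1 and 174.6 CPM in DMSO, and the 3 groups overlapped. The mitochondrial carrier slc25a14 had 97.86, 41.07 and 54.53 CPM at Metolachlor OA D7, against 7.15, 24.74 and 24.74 CPM in DMSO (1.76 ± 0.41, adjusted p = 0.998), and was higher than DMSO at all 8 codes. Caffeine libraries of that exposure held 33.33, 30.98 and 20.28 CPM of slc25a14.

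A few of the drugs are known to be carried by members of the family, and these pairs were set out for that reason, with their values already computed. Gabapentin is carried by the exchanger of slc7a5 and slc3a2. The log2 fold changes of slc7a5 ran from -0.39 to 0.47 over the 8 Gabapentin codes and those of slc3a2b from -0.18 to 0.21, and the 95% intervals of single codes reached from -0.91 to 0.96 and from -0.60 to 0.62. Renal cation carriers and exporters were set beside Cetirizine and Fexofenadine, and carriage of Fexofenadine by slc22a2 is not claimed. For slc22a2 the fold changes were -0.25 to 0.29 in Cetirizine and -0.12 to 0.26 in Fexofenadine. For slc47a1 they were -0.26 to 0.32 in Fexofenadine, and for slco2b1, an uptake carrier of Fexofenadine, -0.23 to 0.13. In Cetirizine those of slc47a1 were -0.71 to -0.30, below 0 at all 8 codes and at an unadjusted p below 0.05 at 5. Hydrochlorothiazide is carried by renal organic anion carriers, and slc22a6l was above DMSO at all 8 Hydrochlorothiazide codes, by 0.09 to 0.62, with intervals from -0.79 to 1.44. Its relative slc22a7a was lower at 6 of the 8 codes, at -0.50 to 0.19, with intervals from -1.31 to 0.92. None of these pairs was called, and intervals of this width do not show that the levels were alike.

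Caffeine, a methylxanthine used as the positive control, had no member called in either set of libraries. On the exposure plates 0 of 56 members and 4.26% of all probes were called by edgeR, with 9 members at an unadjusted p below 0.05, and DESeq2 called 2. In the QA set 0 of 51 members and 1.28% of all probes were called, with 8 members at an unadjusted p below 0.05 and 0 called by DESeq2. The median log2 fold change of the members was 0.04 on the plates and 0.06 in the QA set, against -0.01 and 0.00 over all probes. Over the 51 members measured in both sets, 29 had the same sign.

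The heavy chain slc3a2b came closest on the plates. It averaged 669 ± 128 CPM under caffeine and 594 ± 104 CPM in DMSO (SD, n = 18 each), and was higher under caffeine in 14 of 18 pairs of libraries on the same plate. Its log2 fold change was 0.19 ± 0.06 (adjusted p = 0.0553), and it passed with another size factor (0.0464), with DESeq2 (0.0352), with plate as a block (0.0296) and without plate B (0.0305). It did not pass with no filter, without plate A, without plate C or with no exposure term. In the QA set slc3a2b averaged 350 ± 44.1 CPM under caffeine and 354 ± 31.8 CPM in DMSO (SD, n = 8 each), with full overlap.

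The citrate carrier slc13a5a ranged from 26.5 to 65.3 CPM under caffeine (median 42.6), against 22.97 to 57.6 CPM in DMSO (median 32.05), and the ranges overlapped. Its log2 fold change was 0.39 ± 0.13 on the plates (adjusted p = 0.0610, and 0.0417 with DESeq2), and slc13a5a was higher in 13 of 18 pairs. In the QA set the value of slc13a5a was -0.14 ± 0.20 (adjusted p = 0.889). The test between the sets gave -0.55 for it (unadjusted p = 0.0259, adjusted p = 0.9895). The glutamine carrier slc38a3b ranged from 71.2 to 135 CPM under caffeine (median 97.5), against 51.6 to 119 CPM in DMSO (median 80.1). Its fold change was 0.27 ± 0.09 (adjusted p = 0.0695, and 0.0306 with plate as a block), and in the QA set the value of slc38a3b was 0.27 ± 0.13 (adjusted p = 0.471). Its paralog slc38a3a was called on the plates only without plate B (0.42, adjusted p = 0.0267).

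In the QA set the members with the smallest p were slc38a5b, slc18a2 and slc35a3a. The glutamine carrier slc38a5b ranged from 1120 to 1613 CPM under caffeine (median 1496), against 992.6 to 1429 CPM in DMSO (median 1302), with a log2 fold change of 0.18 ± 0.06 (adjusted p = 0.206). It was called with the library plate as a block (adjusted p = 0.0288). The vesicular monoamine carrier slc18a2 ranged from 17.9 to 45.6 CPM under caffeine (median 30.9), against 20.03 to 32.3 CPM in DMSO (median 21.7), with a value of 0.52 ± 0.19 (adjusted p = 0.235). The Golgi carrier of UDP-N-acetylglucosamine slc35a3a ranged from 14.1 to 29.6 CPM under caffeine (median 25.2), against 25.8 to 41.01 CPM in DMSO (median 32.5), with a value of -0.47 ± 0.18 (adjusted p = 0.253). The change under caffeine did not differ by test between the sets for any of 58 members, with 0 of all probes called by edgeR, 4 members at an unadjusted p below 0.05 and 0 called by DESeq2. Beside these values, 2 of 3 intestinal and 2 of 5 liver markers rose under caffeine on the plates, and 1 of each in the QA set. The haemoglobin gene hbae5 rose in both, by 1.35 ± 0.27 on the plates (adjusted p = 0.00101) and 1.05 ± 0.12 in the QA set (adjusted p = 1.02e-06), and the part of these cells was not tested.

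**Figure D4:**
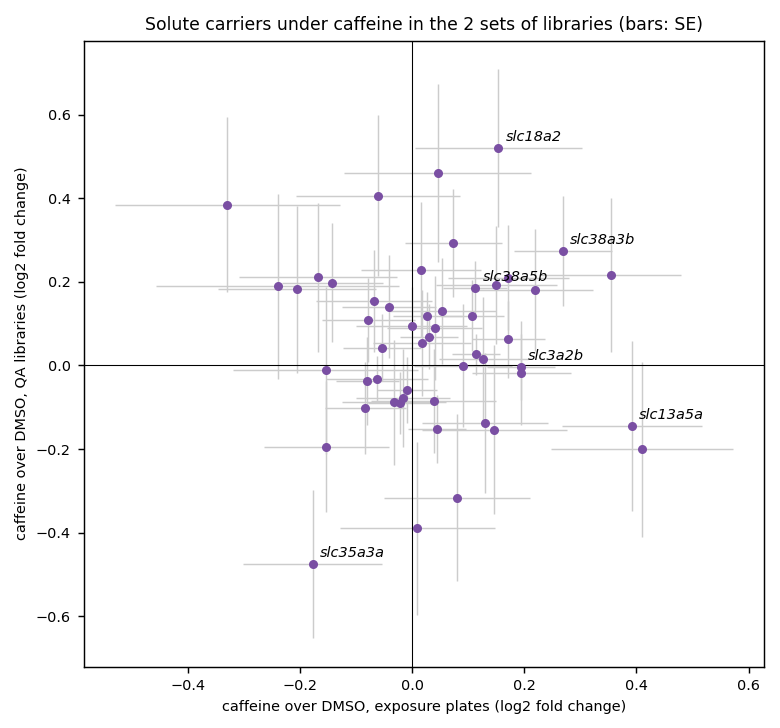
Log2 fold change of caffeine over DMSO for the 51 solute carriers tested in both sets, on the exposure plates (x axis, 18 libraries a group) and in the QA libraries (y axis, 8 a group); bars are SE. The points scatter around 0 in both directions, 29 of 51 have the same sign, and none was called in either set.

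The solvent larvae themselves differed between exposures. The 6 DMSO means were unequal for 11 of 60 members (18.3%), against 13.3% of all probes, with 18 members at an unadjusted p below 0.05 and 10 called by DESeq2. With plate as a block 15 were called, slc11a2, slc35a3a, slc5a6a and slc9a3r1a in addition. Without plate A, B or C, 3, 1 and 6 members were called. Larvae, plates and libraries of an exposure changed together, so that these sources cannot be told apart.

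The ADP/ATP carrier slc25a4 differed most clearly (adjusted p = 3.25e-06, and at most 0.0124 under the alternatives). Its DMSO libraries held 13060, 10950 and 11580 CPM in exposure 1, 8217, 9154 and 10250 in exposure 2, 7445, 6454 and 6279 in exposure 3, 8887, 9733 and 11150 in exposure 4, 9604, 10740 and 9231 in exposure 5, and 6859, 7903 and 6513 in exposure 6. Exposure 1 was highest and exposures 3 and 6 lowest. Caffeine libraries of the same plates kept exposure 1 as the highest, with a mean of 14788 CPM, and exposures 6 and 3 as the lowest, with 6417 and 7271 CPM. The highest mean was 1.76 times the lowest in DMSO. The paralog slc25a5 had DMSO means between 3010 CPM in exposure 5 and 1620 CPM in exposure 3 (adjusted p = 0.0100).

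The glutamine carrier slc38a5b held 894.4, 857.7 and 876.8 CPM in exposure 1, 1063, 1361 and 1200 in exposure 2, 1065, 1046 and 1305 in exposure 3, 774.6, 999.3 and 1069 in exposure 4, 1373, 1403 and 1102 in exposure 5, and 1766, 1331 and 1330 in exposure 6 (adjusted p = 0.00704). Exposure 6 had the highest and exposure 1 the lowest mean, as in the caffeine libraries. The mitochondrial outer membrane protein slc25a46 held 141.3, 109.3 and 101.7 CPM in exposure 1, 59.93, 127.1 and 123 in exposure 2, 73.85, 43.52 and 50.75 in exposure 3, 71.61, 80.72 and 104 in exposure 4, 122.2, 131.8 and 112.4 in exposure 5, and 69.65, 45.57 and 67.58 in exposure 6 (adjusted p = 0.0100). Exposures 3 and 6 of slc25a46 were low, as for slc25a4, with the lowest DMSO mean in exposure 3 (56.0 CPM) and the lowest caffeine mean in exposure 6 (39.5 CPM).

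**Figure D5:**
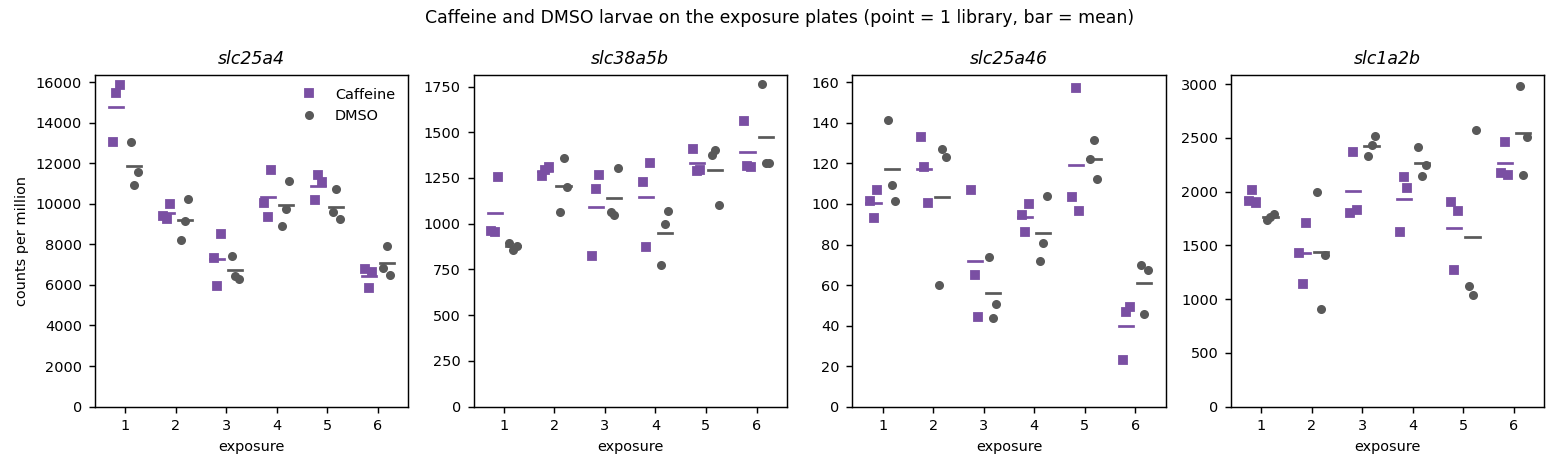
Levels (CPM, y axes from 0) of 4 solute carriers in caffeine (squares) and DMSO (circles) libraries of the 6 exposures; a point is 1 library and a bar the mean. DMSO means of slc25a4 lie between 11864 CPM in exposure 1 and 6726 CPM in exposure 3.

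Of the remaining members that differed, the vesicular glutamate carrier slc17a6b had DMSO means between 290.4 CPM in exposure 5 and 179.5 CPM in exposure 3 (adjusted p = 0.0115). The glutamate carrier slc1a2b lay between 2548 CPM in exposure 6 and 1436 CPM in exposure 2 (adjusted p = 0.0206); exposure 5 held 1119, 1036 and 2572 CPM. The carrier slc25a14 lay between 60.5 CPM in exposure 2 and 15.3 CPM in exposure 4 (adjusted p = 0.0205). The CMP-sialic acid carrier slc35a1 lay between 155 CPM in exposure 4 and 91.9 CPM in exposure 1 (adjusted p = 0.0272). The glycine carrier slc6a9 lay between 94.2 CPM in exposure 3 and 41.2 CPM in exposure 1 (adjusted p = 0.0354). The glutamine carrier slc38a3a lay between 88.8 CPM in exposure 2 and 40.2 CPM in exposure 3 (adjusted p = 0.0372), and the creatine carrier slc6a8 between 40.3 CPM in exposure 1 and 20.3 CPM in exposure 5 (adjusted p = 0.0482). In the caffeine libraries slc1a2b kept both its highest and its lowest exposure. There slc38a3a kept only the highest, and slc25a14 and slc6a9 only the lowest. For slc17a6b, slc35a1 and slc6a8 neither was kept. Over the 18 DMSO libraries, the coefficient of variation of the 55 members with a mean of 10 or more counts had a median of 23.1%, from 8.54% for the taurine carrier slc6a6b to 63.9% for slc25a14.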

How the data were processed

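The authors deposited a table of probe counts, which the file headers and whole-number values show to be unnormalized. Per the submitters' processing notes, bcl2fastq was used; for the aligner, the probes' letters and the build, the entry is "not given in the sources used here". RefSeq names of the assembly fPimPro1.hap1.1 matched 71 of the 73 members, and no sequence is printed. Counts of 338 libraries were analysed with edgeR 4.0.16 (limma 3.58.1, R 4.3.3), TMM scaling, a minimum count of 10 by filterByExpr, the quasi-likelihood F-test and Benjamini-Hochberg adjustment at 0.05 over all probes (and over the 8 codes of a chemical). Fold changes used the default prior count of edgeR. A prior count of 2 entered only the log CPM behind the correlations of libraries on the same plate. In exposure 3 the smallest group was 1 library, so 1 library could carry a probe past the filter. Each exposure was fitted alone. Slopes are linear contrasts over the codes without DMSO, caffeine on the plates has exposure as a term, and SE is the fold change divided by the root of F. CPM is the count over the library total, and tables were handled with pandas 2.3.3 and numpy 2.4.6 in Python 3.11.15. The fits were tested on counts simulated after exposure 1 and the plate controls, without plate effects. A code with a single library, as in exposure 3, was not simulated.

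Named with values were members called in a comparison. Library values were planned for the 3 of smallest adjusted p in a comparison, and are printed for more members than that. Others named are said to be so or stand beside a called paralog or partner. Members and lists were chosen with earlier results of these data known. Groups follow the treatment label, which says caffeine for 26 libraries whose titles name DMSO. Plate letters come from the sample descriptions, which do not call them plates. They were taken as plates and pair libraries by plate. Deviations of libraries with the same letter correlated with a median of 0.0711 (303 pairs, -0.224 to 0.335). All pairs exceeded 0.1 in 6 of 101 groups. Libraries of the QA set are not stated to be separate larvae, so p-values there measure the spread between these libraries. Reads are PCR products, and the limit from a count of 0 (3 counts) covers counting error only. Alternatives were other size factors (RLE), no filter, DESeq2 1.42.0, plate as a block, leaving out each plate and, chosen after seeing the data, codes against DMSO without D1 and counts without probes that passed the filter by the D1 library alone.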

Additional observations from a re-analysis of the deposited data

Results flagged for a closer look

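The vesicular monoamine carrier slc18a2 had 1 DMSO library of the QA set apart from the others, at 32.25 CPM, while the remaining 7 lay between 20.03 and 23.68 CPM. The gap over the whole range exceeded Dixon's 95% critical value for 8 libraries. Chance gives about 1 such result in 20 groups. The 8 caffeine libraries ranged from 17.93 to 45.59 CPM.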

How the results depend on the processing

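Of 62 results for named members, 56 kept direction and side of the threshold with DESeq2, 61 with RLE size factors, 57 with no filter on low counts and 61 with plate as a replicate block. Fewer were kept when libraries were left out, with 34 of 62 without plate B and 42 of 62 without plate C. Without plate A 46 could be fitted, of which 14 were kept and 7 reversed. Without D1, where all libraries stayed in the fit, 35 results remained, of which 3 were kept and 2 reversed. Other size factors moved the median of all probes by at most 0.0397 (log2). The members called under caffeine on the plates numbered 1 with RLE size factors, 2 with DESeq2, 2 with plate as a block, and 0 to 2 without 1 plate; with the library plate as a block 1 was called in the QA set. In 3,4-Dichlorophenyl isocyanate 6 members were called at a code with plate as a block, 0 to 1 without 1 plate and 0 without D1, and 3 to 10 with the trend without 1 plate and 2 without D1. In 2-tert-Butyl-4-methoxyphenol the counts of members were 0 to 12 at a code without 1 plate and 0 without D1, and 1 to 21 with the trend without 1 plate and 1 without D1. The loss of calls at a code without D1 was mostly fixed in advance, since all of them except slc7a3a at D2 were calls at D1. DMSO members that differed numbered 1 to 6 without 1 plate, and cis-Nonachlordane had 0 to 1. The block changed no call other than those given above. Leaving out 1 plate gave 2-tert-Butyl-4-methoxyphenol slopes of -0.0096 to 0.12 for slc11a2, -0.00079 to 0.15 for slc38a3a, -0.031 to 0.11 for slc38a3b, -0.070 to 0.17 for slc38a5a, -0.16 to 0.0034 for slc47a1, -0.042 to 0.27 for slc7a3a and -0.012 to 0.19 for slc7a5, reversing without plate A, which holds the only D1 library. Without D1 the slopes of slc38a5a (-0.0086) and slc7a3b (-0.017) reversed. Fewer libraries were fitted without 1 plate. Without D1 all libraries stayed in the fit and only the contrast left D1 out. Causes of the reversals were not tested. Depth limits the 18 members with a mean under 10 counts, and 8 members were never tested.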
